A study of Mus musculus with 8 samples.

Results

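To describe where 2 subunits of the SWI/SNF chromatin remodeling complexes lie along the signaling route from hedgehog ligand to COUP-TFII in uterine stroma, the loci of 9 genes were examined among 21938 protein-coding genes. The genes were the ligand gene *Ihh*, the receptor genes *Ptch1* and *Hhip*, the transducers *Smo* and *Sufu*, the transcription factor genes *Gli1*, *Gli2* and *Gli3*, and *Nr2f2*, which encodes COUP-TFII. They were chosen by their known place in the pathway and not by a measured value, although earlier results of these data were known. For each gene, a promoter peak was a peak with any base within 2000 bp of a GENCODE transcription start site (TSS) of that gene on mm10, and locus peaks were all peaks in the gene body and 50 kb on either side. The 9 loci held 107 of the 55119 peaks of the pooled PBRM1 list and 140 of the 82669 peaks of the pooled BRG1 list.

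In hedgehog signaling, the secreted ligand binds the membrane protein PTCH1, which otherwise holds the transducer SMO inactive, and freed SMO lets GLI factors escape restraint by SUFU. GLI2 acts mostly as an activator and GLI3 mostly as a repressor, whereas *Gli1*, *Ptch1* and *Hhip* are themselves transcriptional targets that report or dampen the signal. In the receptive mouse uterus, progesterone induces *Ihh* in the epithelium, and the ligand acts on the stroma below, where COUP-TFII is part of the response that restrains epithelial estrogen signaling.

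The libraries came from chromatin immunocleavage sequencing (ChIC-Seq), in which a nuclease coupled to an antibody cuts the DNA around the antigen in fixed cells and the cut DNA is sequenced. PBRM1 (BAF180, a subunit particular to the PBAF form of SWI/SNF) and BRG1 (the ATPase, shared with other forms of the complex) had 3 replicates each, from stromal cells of the uteri of WT mice aged 8 to 12 weeks on D4. The labels call this day 4 of pregnancy in 1 field and pseudopregnant in another, and give 50000 cells per library, fixed for 5 minutes after some hours on culture dishes. Each preparation pooled 5 to 10 uterine horns, so that a replicate is a pool of tissue and not 1 animal, and the stromal cells were separated by enzyme digestion and filtering. All cells were WT, and the comparisons below are between antibodies and loci. The 2 IgG libraries were not analysed here.

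Peaks rested on 8868777 to 16505239 fragments per PBRM1 replicate and 11506964 to 14595089 per BRG1 replicate. The PBRM1 lists held 21912 to 26363 peaks and the BRG1 lists 36656 to 40610, without overlap. Fold enrichment (over the local background of the same library) and the −log10 q-value are not on a common scale between libraries, so a peak was placed by its percentile, its rank by −log10 q as a percent of the peaks of its own list, with ties averaged and the strongest peak highest. The BRG1 lists were the longer ones in every replicate, and the part of list length in the percentiles was not tested. Peaks were called without a control library, so a peak stands for local enrichment in that library only, and signal that any antibody would collect was not tested. Of 9 stromal markers (*Vim*, *Pdgfra*, collagens and others), all 9 had a promoter peak in both pooled lists, 5 had one in all 6 replicate lists and 8 in all 3 BRG1 lists, where 51.9% and 61.4% of all protein-coding genes had one, so that these counts did not set stromal markers apart. Of 9 epithelial markers, 8 had one in the pooled PBRM1 list, 9 in the pooled BRG1 list, 5 in all 3 BRG1 lists and 2 (*Krt7* and *Muc1*) in all 6 replicate lists. Of 4 endothelial markers, 2 had one in the pooled PBRM1 list, 4 in the pooled BRG1 list, 2 in all 3 BRG1 lists and 1 (*Kdr*) in all 6 lists. Of all protein-coding genes, 68.6% had one in the pooled PBRM1 list and 72.1% in the pooled BRG1 list. Of 4 leukocyte markers, none had a promoter peak in any replicate list and 1 had one in the pooled BRG1 list. The part of epithelial cells in the peaks was not tested. No expression values were used, so a promoter peak was not read as a sign that a gene was active in stroma.

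All 9 genes had a promoter peak in both pooled lists, against 68.6% of protein-coding genes in the PBRM1 list and 72.1% in the BRG1 list. In the replicates, 7 of 9 had a promoter peak in all 3 PBRM1 lists, where 52.2% of genes did, 8 of 9 in all 3 BRG1 lists, where 61.4% did, and 7 of 9 in all 6 lists, where 51.9% did. *Ihh* had a promoter peak in 1 of 3 PBRM1 and 1 of 3 BRG1 lists, and *Hhip* in 2 of 3 PBRM1 and 3 of 3 BRG1 lists. *Ptch1*, *Smo*, *Sufu*, *Gli1*, *Gli2*, *Gli3* and *Nr2f2* made up the 7. With a −log10 q of at least 5, *Gli1* and *Gli3* also left this group and 5 genes remained. Over all genes with a promoter peak in all 6 lists, the median percentile was 74.6 to 79.1 in the PBRM1 lists and 85.1 to 86.5 in the BRG1 lists, and *Sufu* alone of the 9 was above these medians in every list.

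**Figure D1:**
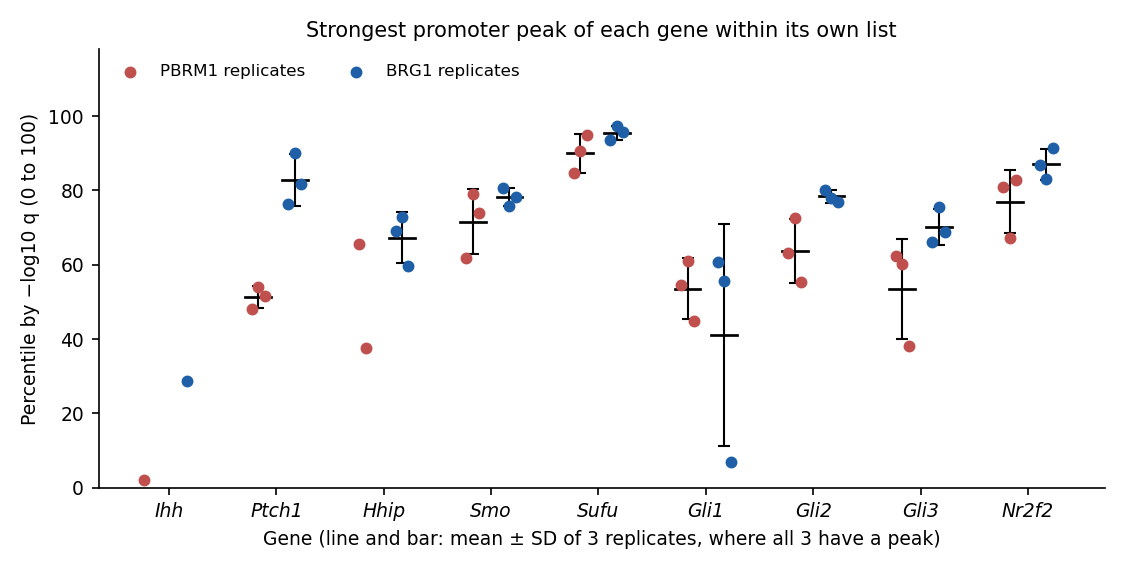
Percentile, by −log10 q within its own list, of the strongest promoter peak of each gene in the 3 PBRM1 (red) and 3 BRG1 (blue) replicate lists. Points are replicates, and lines with bars are the mean ± SD of 3 replicates where all 3 had a peak. *Sufu* is highest with both antibodies, *Ihh* has 1 point per antibody, and *Gli1* has a low BRG1 replicate at 6.8.

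The ligand gene *Ihh* (chr1:74945315-74951672, minus strand) had the weakest promoter of the 9. Its strongest promoter peak, at chr1:74951619-74952018 with a summit 96 bp upstream of the TSS and a span into the exon, was in the pooled BRG1 list with a fold enrichment of 4.24 and in BRG1 replicate 2 alone. The PBRM1 promoter peak of the gene was another, at chr1:74950622-74951297, seen in PBRM1 replicate 1 at the 2.2 percentile and in the pooled list with a fold enrichment of 2.93. The distal site of the locus was stronger. A peak at chr1:74964513-74965150, between genes and 13171 bp upstream of the *Ihh* TSS, had BRG1 fold enrichments of 8.11, 5.44 and 8.19 in replicates 1, 2 and 3, a mean of 7.25 ± 1.56 (SD, n = 3). No PBRM1 replicate had a peak there, and the pooled PBRM1 list had 1 at the 61.3 percentile. The 200 bases at the BRG1 summit, on the plus strand with the 11 summit bases in capitals, are given because this was the *Ihh* site with the most replicate support, and they read as follows.
*Ihh* upstream site, chr1:74964743-74964942: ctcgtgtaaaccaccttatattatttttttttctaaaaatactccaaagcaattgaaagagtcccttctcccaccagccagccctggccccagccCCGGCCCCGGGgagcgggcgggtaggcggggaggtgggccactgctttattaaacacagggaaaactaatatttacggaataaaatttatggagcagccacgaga

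*Ptch1* (chr13:63508328-63573598, minus strand), the receptor gene and a target of GLI factors, carried its 3 strongest pooled PBRM1 sites at its 5′ end. The site nearest the start of its longest transcript, at chr13:63572509-63573973, lay over the exon and was in all 6 lists, with percentiles of 48.2, 54.0 and 51.7 for PBRM1 and 76.4, 74.0 and 54.5 for BRG1. Every BRG1 value was above every PBRM1 value there, by 54.45 against 54.02 at the nearest pair, and the BRG1 peak of replicate 3 shared no base with a PBRM1 replicate peak within this merged site. The difference in means was −17.0 percentiles (PBRM1 minus BRG1, exact permutation, p = 0.1, which is as low as 3 against 3 can go). The next site, at chr13:63566085-63566681, lay 751 bp upstream of the TSS at position 63565735 and in an intron of the longest transcript. It was in all 3 BRG1 lists, with percentiles of 74.7, 90.2 and 81.7, and in no PBRM1 replicate list, although the pooled PBRM1 list placed it at 82.2. The strongest site of the locus was between these, at chr13:63567764-63568351. With a summit 2193 bp upstream of the same TSS, and its near edge 2029 bp away, it fell just outside the 2000 bp promoter window and inside the window of a noncoding transcript, *A930032L01Rik*. It ranked at 98.3, 95.8 and 96.4 for PBRM1 and at 96.5, 96.5 and 96.3 for BRG1, so the groups were not separate, and the means differed by 0.413 percentiles (exact permutation, p = 0.9). Over its promoter window, *Ptch1* had the largest difference of the 7 genes with a promoter peak in all 6 lists, with means of 51.3 ± 2.92 and 82.8 ± 6.94 (SD, n = 3), and different peaks gave these values, since the BRG1 values of replicates 2 and 3 came from the intronic site.

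The letters GACCACCCA, the core recognized by GLI factors, were searched on both strands of the RefSeq GRCm38 genome, from which all printed sequences were read. At the 5′ end of *Ptch1* they lay in 2 of the 3 sites, 5 bp from the summit of the site over the exon and 47 bp from the summit of the BRG1 site without a PBRM1 replicate peak. The stretches are given on the strand where the letters read forward, with the letters in capitals, because *Ptch1* is the feedback target of the pathway. The stretch over the exon is kept short since it lies in the 5′ UTR.
*Ptch1* exon site, chr13:63573455-63573483, minus strand: tggcgcggcaGACCACCCAcgccgagggc
*Ptch1* intron site, chr13:63566375-63566503, plus strand: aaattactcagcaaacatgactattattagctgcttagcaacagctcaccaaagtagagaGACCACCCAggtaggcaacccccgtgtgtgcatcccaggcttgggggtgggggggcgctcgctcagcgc

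*Hhip* (chr8:79965851-80058006, minus strand), which encodes a membrane protein that sequesters hedgehog ligand, had 1 promoter peak at chr8:80057289-80058142, over the TSS. Its percentiles were 69.2, 72.9 and 59.6 in the BRG1 replicates. PBRM1 reached 65.7 in replicate 1 and 37.7 in replicate 2 and had no peak in replicate 3, the deepest PBRM1 library. The strongest distal site, at chr8:79929241-79930255, was in 2 of 3 lists of each antibody and ranked between 5.7 and 25.8. *Hhip* had few peaks for its length, with 2.08 pooled PBRM1 and 4.68 pooled BRG1 peaks per 100 kb, at the 33.8 and 44.6 percentiles of all protein-coding genes.

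*Smo* (chr6:29735503-29761365, plus strand), the transducer freed by ligand, had a promoter peak over its start and exon at chr6:29735358-29736621 in all 6 lists. The percentiles were 61.9, 79.0 and 73.9 for PBRM1 and 80.8, 75.9 and 78.2 for BRG1, which overlapped, and the means of 71.6 ± 8.74 and 78.3 ± 2.43 (SD, n = 3) differed by less than the spread between the PBRM1 replicates. A site 16455 bp upstream, between *Smo* and its neighbor *Tspan33* at chr6:29718887-29719468, was unlike the promoter. Its BRG1 fold enrichments were 13.2, 11.2 and 13.7, a mean of 12.7 ± 1.29 (SD, n = 3), and it ranked at 92.1, 88.1 and 93.5, whereas PBRM1 had a peak there in replicate 3 alone, with a fold enrichment of 5.01 and a percentile of 53.3. Within the pooled lists it ranked at 69.6 for PBRM1 and 96.5 for BRG1. This site held the GLI letters 29 bp from its summit, shown in capitals for comparison with *Ptch1*.
*Smo* upstream site, chr6:29719013-29719141, minus strand: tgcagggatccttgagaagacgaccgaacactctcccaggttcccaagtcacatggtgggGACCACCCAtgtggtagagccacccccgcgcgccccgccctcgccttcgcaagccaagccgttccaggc

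The GLI letters were in 4 of 107 member windows of 250 bp on either side of the pooled PBRM1 summits (3.74%, 95% Wilson interval 1.46 to 9.22) and in 4 of 140 around the pooled BRG1 summits (2.86%, 1.12 to 7.12), where 0.654% of all pooled PBRM1 windows and 0.632% of all pooled BRG1 windows held them. The remaining windows were weak *Ptch1* and *Gli2* sites seen in no replicate list. The core of a CTCF site, AGGGGGCGC, was in 0.935% and 2.14% of the member windows against 1.79% and 1.54% of all windows. AGGTCA, the repeat bound by nuclear receptors, was in 16.8% of the PBRM1 and 28.6% of the BRG1 member windows, against 28.5% and 29.1% of all windows. The letters TCAAAGGTC, part of a COUP-TFII element of direct repeats, were in none of the member windows and in 0.443% and 0.469% of all windows. ACANNNTGT, from progesterone receptor elements, was in 8.41% and 8.57%, against 12.0% and 13.0%, and TGANTCA, the AP-1 letters, in 14.02% and 18.6%, against 17.1% and 17.5%. None of these letter counts was tested, and a match is no evidence of a bound factor.

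**Figure D2:**
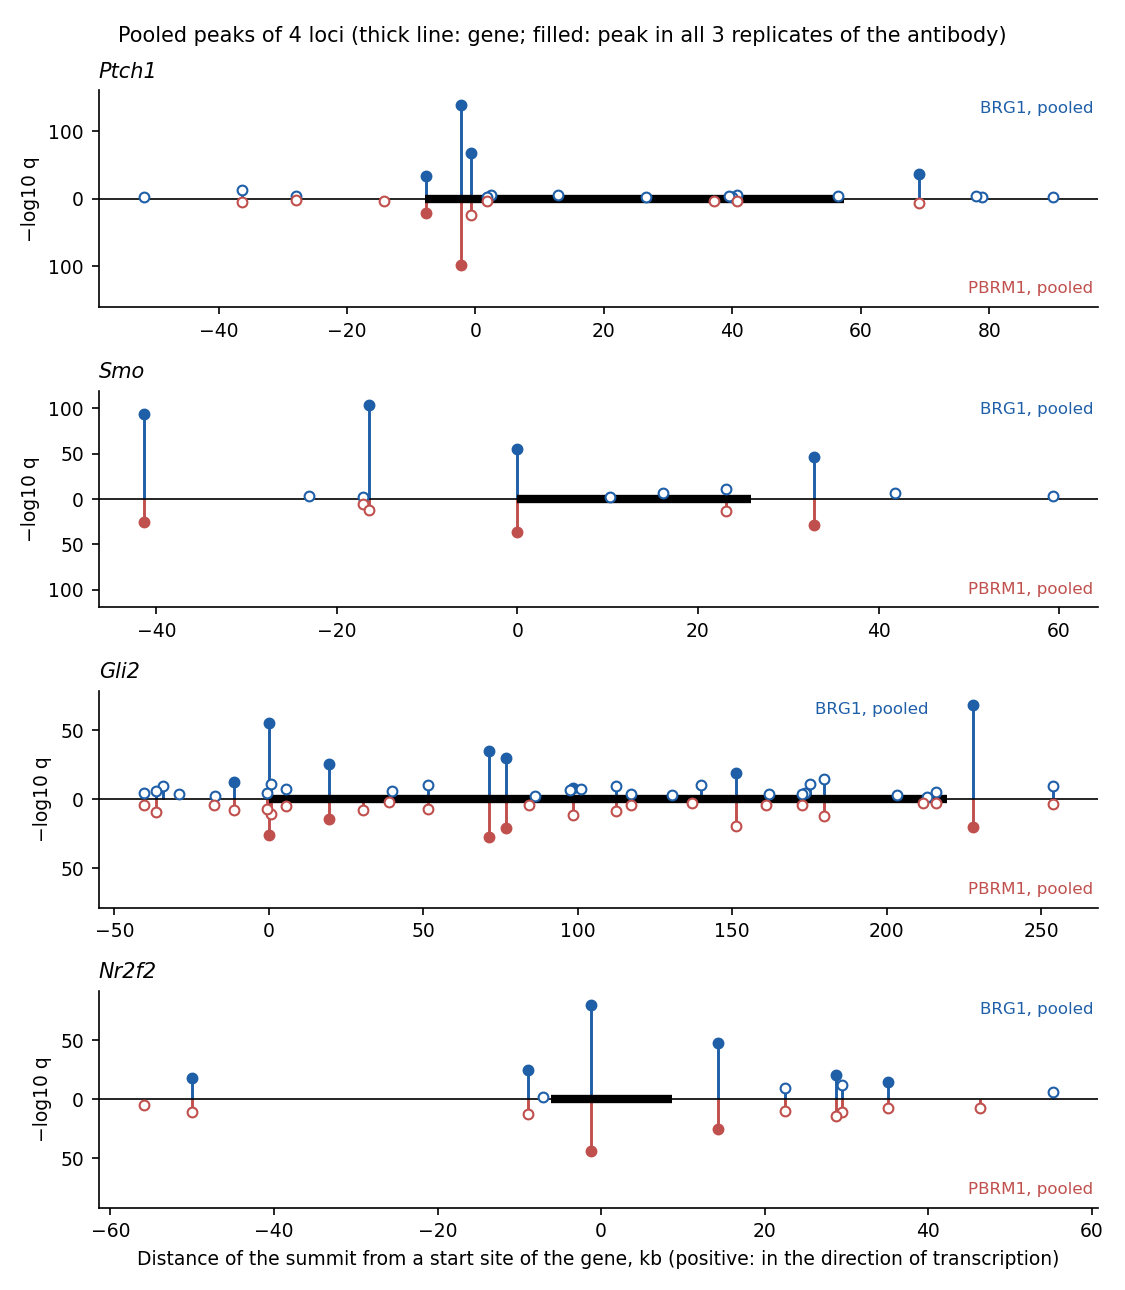
Pooled peaks of the *Ptch1*, *Smo*, *Gli2* and *Nr2f2* loci by the distance of the summit from a TSS of the gene (kb, positive in the direction of transcription), with BRG1 −log10 q upward and PBRM1 −log10 q downward. The thick line is the gene and filled points are sites with a peak in all 3 replicates of that antibody. The *Smo* site 16455 bp upstream has a tall BRG1 line and a short PBRM1 line, while the tallest line of *Ptch1* stands toward its 5′ end and that of *Nr2f2* inside the gene, 1261 bp upstream of an inner TSS, with both antibodies.

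*Sufu* (chr19:46396896-46488804, plus strand), which encodes the cytoplasmic restraint on GLI factors, had the strongest promoter of the 9 genes. Its peak at chr19:46396691-46397303, 5 bp from a TSS and over the exon, ranked at 84.6, 90.6 and 95.04 for PBRM1 and 93.5, 97.4 and 95.7 for BRG1, with means of 90.1 ± 5.24 and 95.5 ± 1.93 (SD, n = 3). The groups overlapped (exact permutation, p = 0.2). The promoter is shared with *Actr1a*, which starts on the other strand, and another peak, at chr19:46395059-46395871, lay over an *Actr1a* exon. There BRG1 ranked above PBRM1 in every replicate, with means of 88.7 ± 1.39 and 74.1 ± 6.82 (SD, n = 3). The genes with promoter percentiles most like those of *Sufu* over the 6 replicate lists, by Euclidean distance among 11375 genes, were *Actr1a* (distance 0, since the same peak served both genes), *Lbr* (3.60) and *Dimt1* (3.92 percentiles).

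The *Sufu* locus was also the densest, with 26 pooled PBRM1 and 30 pooled BRG1 peaks, or 13.5 and 15.6 per 100 kb, at the 98.0 and 96.8 percentiles of protein-coding genes. Of its 35 merged sites, 8 were at promoters of other genes and 6 in the bodies of other genes. The promoters of *2310034G01Rik*, *Mfsd13a* and *Trim8* accounted for 3 sites found in all 6 lists. Past the 3′ end, 2 distal sites were in all 6 lists, at chr19:46523381-46524491 and chr19:46524617-46525187. The stronger, 35173 bp beyond the gene, ranked at 75.0, 65.1 and 72.5 for PBRM1 and 84.99, 82.1 and 61.1 for BRG1, and the antibodies overlapped.

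*Gli1* (chr10:127329882-127341974, minus strand), the GLI factor that is itself induced by the signal, had no promoter peak position common to all 6 lists. The strongest, at chr10:127340025-127341206, was in PBRM1 replicates 1 and 2 and BRG1 replicates 1 and 2. A smaller neighbor at chr10:127339410-127339673 was in all 3 BRG1 lists and no PBRM1 list. Taking the best peak of each list, *Gli1* ranked at 54.7, 61.1 and 45.0 for PBRM1 and 60.8, 55.7 and 6.8 for BRG1, and the mean difference of 12.5 percentiles in favor of PBRM1 rested on BRG1 replicate 3, without which it was −4.66. A distal site over an exon of *Inhbe*, at chr10:127350409-127351018 and 8715 bp upstream of *Gli1*, was in all 6 lists, with means of 42.0 ± 11.02 and 47.5 ± 8.68 (SD, n = 3) and overlapping replicates. The strongest peaks near *Gli1* belonged to other genes, *Ddit3*, *Mars* and *R3hdm2*, all in all 6 lists.

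*Gli2* (chr1:118834132-119053619, minus strand), the main activator, had promoter peaks at both of its separate start regions in all 6 lists. At the start of the longer transcript, chr1:119053294-119053986, the percentiles were 63.1, 72.6 and 39.8 for PBRM1 and 80.2, 78.0 and 77.0 for BRG1, without overlap. At the inner start, chr1:118981841-118983192, they were 60.7, 70.4 and 55.5 for PBRM1 and 65.0, 71.3 and 63.9 for BRG1, which overlapped. *Gli2* had 3 distal sites in all 6 lists, the most of any of the 9 genes. Those at chr1:118976473-118977256 and chr1:119033510-119034568 lay in introns and the antibodies overlapped at both. The strongest, at chr1:118825024-118826288, lay between genes 8480 bp past the 3′ end. Its BRG1 fold enrichments of 12.1, 7.90 and 8.64 and percentiles of 91.1, 74.9 and 79.4 were all above the PBRM1 percentiles of 48.7, 64.3 and 41.7.

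*Gli3* (chr13:15463235-15730026, plus strand), which gives the main repressor, had a promoter peak at chr13:15462937-15463851 in all 6 lists, over a TSS and the exon. PBRM1 ranked at 62.3, 60.1 and 38.1 and BRG1 at 66.1, 75.6 and 68.8, without overlap. The locus was otherwise sparse, with 2.18 pooled peaks per 100 kb for each antibody, at the 34.5 percentile of genes for PBRM1 and 27.3 for BRG1. Its only distal site in all 6 lists was at chr13:15759019-15759765, between genes and 29275 bp past the 3′ end. BRG1 fold enrichments there were 12.7, 11.3 and 12.2, a mean of 12.0 ± 0.697 (SD, n = 3), and PBRM1 fold enrichments 7.21, 5.12 and 5.06, a mean of 5.80 ± 1.23 (SD, n = 3). The percentiles of 87.6, 83.5 and 86.2 for BRG1 and 55.6, 38.4 and 46.8 for PBRM1 gave the largest difference of the 25 sites in all 6 lists, −38.8 (exact permutation, p = 0.1). The 200 bases at its BRG1 summit are given on the plus strand with the 11 summit bases in capitals.
*Gli3* downstream site, chr13:15759201-15759400: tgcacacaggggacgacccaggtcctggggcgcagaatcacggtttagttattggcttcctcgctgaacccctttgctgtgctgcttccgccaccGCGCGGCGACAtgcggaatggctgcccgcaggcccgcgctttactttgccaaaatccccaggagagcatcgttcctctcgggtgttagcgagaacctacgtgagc

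*Nr2f2* (chr7:70351944-70366735, minus strand), the stromal end of the route, had a higher mean promoter percentile with each antibody than any of the 9 genes but *Sufu*. Its peak at chr7:70361541-70362325 lay 1261 bp upstream of the TSS at position 70360593 and within an intron of the longer transcript, and its other promoter peak, in the pooled BRG1 list only, lay 1009 bp from a TSS. The percentiles were 80.8, 67.2 and 82.90 for PBRM1 and 86.8, 82.97 and 91.4 for BRG1, with means of 77.0 ± 8.53 and 87.1 ± 4.21 (SD, n = 3). Every BRG1 value was above every PBRM1 value, but only as 82.97 against 82.90 at the nearest pair. The call depended on the promoter distance, since within 500 bp of a TSS *Nr2f2* had no peak in either pooled list. The 200 bases at the summit, 70.0% G and C with 28 CpG, are given on the plus strand with the 11 summit bases in capitals.
*Nr2f2* site, chr7:70361754-70361953: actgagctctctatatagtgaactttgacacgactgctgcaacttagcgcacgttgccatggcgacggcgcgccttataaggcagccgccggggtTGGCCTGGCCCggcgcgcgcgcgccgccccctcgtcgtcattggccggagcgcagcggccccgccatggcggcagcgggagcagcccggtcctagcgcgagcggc

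*Nr2f2* was flanked by peaks on both sides. A site 5633 bp past the 3′ end, at chr7:70346012-70346494 and near the noncoding genes *Gm44946* and *Gm44948*, was in all 6 lists, where PBRM1 had a mean of 55.8 ± 6.29 and BRG1 a mean of 74.6 ± 5.28 (SD, n = 3) without overlap. The strongest distal site, at chr7:70368881-70370695 and 2782 bp upstream, lay in the noncoding gene *B130024G19Rik* and was in 2 of 3 PBRM1 and 3 of 3 BRG1 lists. *Nr2f2* had 11 pooled PBRM1 and 10 pooled BRG1 peaks, and was the only one of the 9 genes with more PBRM1 than BRG1 peaks in the pooled lists. The counts in the replicate lists went the other way, with 6, 7 and 3 PBRM1 and 9, 7 and 7 BRG1 peaks. The difference in means was −2.33 (exact permutation, p = 0.3). Per 10000 peaks of the longer BRG1 and shorter PBRM1 lists, the means were 2.21 for PBRM1 and 2.00 for BRG1 (exact permutation, p = 0.8).

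**Figure D3:**
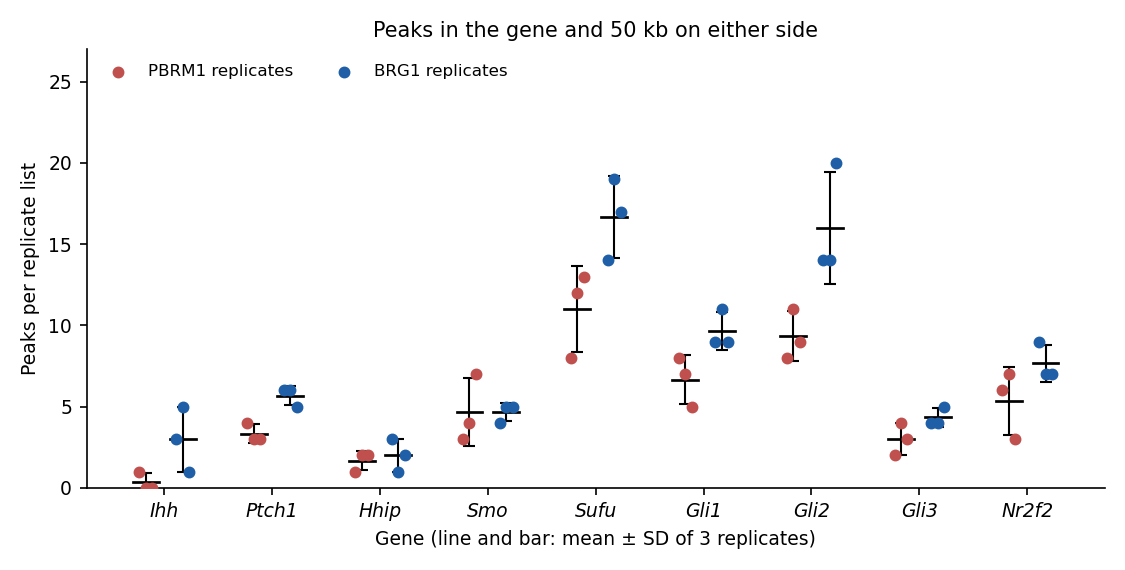
Peaks in the gene and 50 kb on either side in each PBRM1 (red) and BRG1 (blue) replicate list. Points are replicates, and lines with bars are the mean ± SD of 3 replicates. *Sufu* and *Gli2* have the most peaks with both antibodies, and *Ihh*, *Hhip* and *Gli3* the fewest.

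Across the 9 loci, the replicates held 41, 50 and 45 PBRM1 peaks and 66, 72 and 71 BRG1 peaks. In 4 genes (*Ptch1*, *Sufu*, *Gli1* and *Gli2*) every BRG1 replicate had more locus peaks than every PBRM1 replicate, for example 14, 14 and 20 against 8, 11 and 9 for *Gli2*, with a difference in means of −6.67 peaks (exact permutation, p = 0.1). The same held for 22.1% of protein-coding genes, the reverse for 0.0365% of them and for none of the 9. When the counts were taken per 10000 peaks of the list, no gene of the 9 was separated in either direction, where 4.86% of genes had BRG1 above and 19.2% had PBRM1 above. With the lists limited to their 20000 strongest peaks, 2 genes had every BRG1 count above every PBRM1 count, and the mean differences of *Sufu* and *Gli2* turned to 1.33 and 1.67 peaks more for PBRM1. The share of all protein-coding genes separated under this limit was not computed.

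Of the 7 genes with a promoter peak in all 6 lists, 4 had every BRG1 promoter percentile above every PBRM1 percentile, against 40.1% of 11376 genes. These were *Ptch1* (difference in means −31.5), *Gli2* (−14.7), *Gli3* (−16.7) and *Nr2f2* (−10.1). The reverse was seen in none of the 7 and in 2.71% of genes. The median difference was −10.1 percentiles over the 7 genes and −8.79 over all genes. By fold enrichment in place of −log10 q, none of the 7 was separated, where 32.5% of genes were. Site by site, 25 of 166 merged sites in the 9 loci had a peak in all 6 lists. Every BRG1 percentile was above every PBRM1 percentile at 10 of them, against 38.8% of 13084 such pooled BRG1 peaks. The reverse held at none, against 2.48%. The 10 were 5 promoter sites of the 9 genes, 3 promoters of neighbors and 2 of the 7 distal sites. Without PBRM1 replicate 2, 18 of the sites in all remaining lists were separated, where the count could only stay or rise. The share of all such peaks separated without that replicate was not computed, so the 18 has no background beside it.

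**Figure D4:**
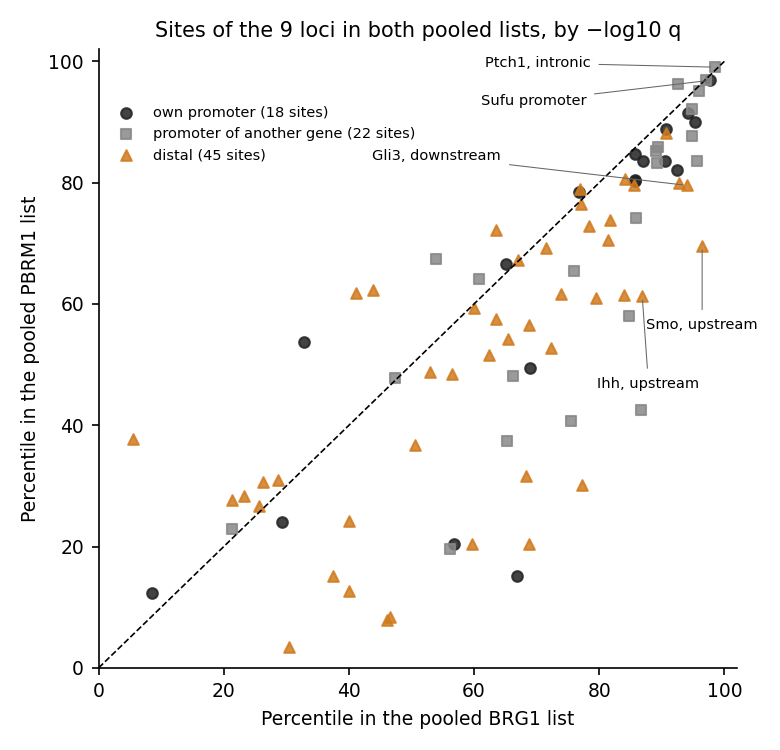
Percentile in the pooled PBRM1 list against percentile in the pooled BRG1 list for the 85 sites of the 9 loci found in both, by kind of site. The dashed line marks equal percentiles, the *Sufu* promoter (96.9 and 97.8) lies near it at the top, and the upstream *Smo* and *Ihh* sites and the downstream *Gli3* site lie below it.

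Of the pooled PBRM1 locus peaks, 87 of 107 (81.3%, 95% Wilson interval from 72.9 to 87.6) shared bases with the pooled BRG1 list, against 78.6% of all pooled PBRM1 peaks. Of the pooled BRG1 locus peaks, 87 of 140 (62.1%, 53.9 to 69.8) overlapped a pooled PBRM1 peak, against 52.4% of all. A peak in all 3 BRG1 lists and no PBRM1 list was found at 6 of the 140 pooled BRG1 peaks (4.29%, 1.98 to 9.03), and at 2.55% of the whole list. These sites were the upstream *Ihh* site, the intronic GLI site of *Ptch1*, a promoter site of *Gli1*, a site at the *Ddit3* and *Mbd6* promoters in the *Gli1* locus, 1 intronic site of *Sufu* and 1 site upstream of *Gli2*. No site had a peak in all 3 PBRM1 lists and no BRG1 list. Among pooled BRG1 peaks this pattern was rare everywhere, at 0 of 140 in the loci and 28 of 82669 (0.0339%) in the whole list. All intervals cover counting error only.

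Beyond the 9 genes, 37 other hedgehog pathway genes were counted. A promoter peak was in the pooled PBRM1 list for 36, in the pooled BRG1 list for 37, and in all 6 replicate lists for 23, where the shares of all protein-coding genes were 68.6%, 72.1% and 51.9%. The ciliary and cytoplasmic transducers had the largest share, with 14 of 16 in all 6 lists, and the strongest of these was *Arrb2* (an arrestin) with a mean of 97.2 percentiles over the 6 lists. Of 7 genes for ligands and their release, 3 were in all 6 lists, led by *Scube1* (72.4), which encodes a secreted helper of ligand release. *Shh*, a hedgehog ligand, was the only one of the 37 with a promoter peak in no replicate list. Of 5 receptors and coreceptors, 3 were in all 6 lists. Of 7 target genes in mesenchyme 3 were, led by the cyclin gene *Ccnd1* (84.3). Neither of the other COUP-TF genes, *Nr2f1* and *Nr2f6*, had a promoter peak in all 6 lists.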

How the data were processed

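The 6 replicate and 2 pooled ChIC-Seq peak lists for PBRM1 and BRG1 were used, grouped by antibody from the labels. Nothing was computed from IgG libraries. The authors trimmed read pairs with cutadapt, aligned them to mm10 with Bowtie2, removed low-quality and duplicate pairs, and ran MACS 2.2.7.1 on every replicate and once more on each antibody's fragments combined. Per the file headers, the q-value cutoff was 0.05, the regional background 10000 bp, and no control was used. The deposited lists give a pileup signal, a fold enrichment and −log10 p- and q-values for each peak, and the deposited −log10 q-value served to rank peaks within a list. 

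Peaks were assigned in Python 3.11.15 with numpy 2.4.6 and pandas 2.3.3 to GENCODE vM21 TSSs, and overlaps needed 1 bp. Overlapping peaks of the 8 lists were merged into sites, and a distal site lay over 2000 bp from every GENCODE TSS. Sequences were read with pysam 0.24.0 from the GRCm38 assembly of RefSeq. Differences were tested with two-sided exact permutation tests, which cannot go below p = 0.1 with 3 against 3. The p-values measure the spread between replicates and treat the antibodies as unpaired, and whether the antibodies shared pools of tissue was not tested. For each gene, the text names the promoter peak and the distal site with the highest −log10 q in the pooled BRG1 list and every distal site in all 6 lists; of the pathway lists, it names the gene with the highest mean percentile and those in no replicate list, except for 1 result that is not reported here. Other sites and neighboring genes were named after their values were seen. The 9 genes, the pathway lists, the markers and the motif letters were chosen with earlier results of these data known. Same-numbered replicates did not deviate together, so the numbers were not used as pairs. Promoter calls, locus counts, overlaps and motif calls were tested on simulated peaks and sequences.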

Additional observations from a re-analysis of the deposited data

How the results depend on the processing

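The counts of genes with a promoter peak stayed within 1.5 times of their values under all promoter distances, TSS sets and peak thresholds tried. Within that band, the count in all 6 lists fell from 7 to 5 within 500 bp, with gene starts only and at the −log10 q limit of 5. It was 6 within 1000 bp and with a fold enrichment of at least 4. When a replicate was left out, 7 to 8 genes were in all remaining lists, a count that could not fall. The locus counts of 107 PBRM1 and 140 BRG1 peaks fell to 49 and 67 in the gene bodies alone, to 47 and 71 with a fold enrichment of at least 4, and to 25 and 43 for pooled peaks with a peak in all 3 replicates, and the PBRM1 count fell to 69 at the −log10 q limit of 5. The overlap share of BRG1 peaks was 53.7% in gene bodies, and that of PBRM1 peaks 89.4% with a fold enrichment of at least 4 and 100% for replicated peaks. Genes with every BRG1 count above every PBRM1 count numbered 1 in gene bodies, 1 within 20 kb, and 2 among the 20000 strongest peaks, with 4 to 6 when a replicate was left out. Per 10000 peaks they numbered 0 to 1 when a replicate was left out, 1 at the −log10 q limit of 5 and 2 among the 20000 strongest peaks. For promoter percentiles they numbered 0 by fold enrichment, 2 among promoter peaks only, and 4 to 5 when a replicate was left out. Leaving a replicate out could only keep or raise these counts of separated genes. Of the sites in all 6 lists, 5 were separated by fold enrichment percentile. When a replicate was left out, 10 to 18 of the sites in all remaining lists were separated, a count that could not fall below 10. The shares of all genes or sites separated with a replicate left out, or with 20000 peaks per list, were not computed. These alternatives were chosen after seeing the data. The sign turned for *Sufu* (1.33) and *Gli2* (1.67) locus counts among the 20000 strongest peaks, for the *Hhip* count without BRG1 replicate 1 (−0.833 to 0.167 when a replicate was left out) and for the *Gli1* percentile without BRG1 replicate 3 (−4.66 to 22.3). Per 10000 peaks of the list, mean locus differences also turned to PBRM1 for *Hhip* (0.188), *Sufu* (0.271), *Gli1* (0.269), *Gli3* (0.117) and *Nr2f2* (0.216). They stayed with BRG1 for *Ihh* (−0.645), *Ptch1* (−0.0654) and *Gli2* (−0.275), and *Smo* went from 0 to 0.780. The cause of these changes was not tested. With a replicate block, pairing same-numbered replicates, 5 genes had BRG1 above in every pair by locus count, 1 per 10000 peaks and 5 by promoter percentile, as did 15 sites, and the exact sign-flip test cannot go below p = 0.25. Same-numbered replicates correlated at −0.0445, −0.0139 and −0.0133 in their deviations over 13084 peaks. These values gave no ground for pairing but cannot exclude that same-numbered replicates shared a pool of tissue. Most other motif shares moved with narrower and wider windows. Both GLI shares stayed within their intervals, but each rested on 4 member windows. Those intervals were wide, so this check could not show whether the GLI shares were stable. With narrower windows the GLI letters were in 2 PBRM1 and 3 BRG1 member windows. With wider windows both counts stayed at 4, while the shares of all windows that held the letters rose. Of the 166 sites, 56 were in pooled lists only and have no replicate check, and the part of depth was not tested.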
